A study of Equus caballus with 4 samples.

Results

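The genes described here carry the signal of type I interferon from the cell surface to the nucleus, and they were measured in equine satellite cells incubated with gamma-oryzanol (GO), a mixture of ferulic acid esters from rice bran. Of the 9 genes listed, *ifnar1*, *ifnar2*, *jak1*, *jak2*, *tyk2*, *stat2*, *irf1*, *irf7* and *irf9*, 8 had a probe that carried their symbol on the horse array, with 17 probes among the 43603 probes that were not controls. No probe was named *tyk2*. Satellite cells are the stem cells of skeletal muscle, and these came from the *semitendinosus* muscle of healthy colts less than a year old. All cells were on day 3 of differentiation into myotubes in medium with horse serum. GO-treated cells had received 125 nM GO in DMSO after day 2, for 24 h, and control cells had received the same volume of DMSO (0.04 μl/ml) for the same time. Each of 4 arrays on 1 slide held RNA of GO-treated cells labeled with Cy5 beside RNA of control cells labeled with Cy3. The labels call the 4 arrays biological replicates. The methods describe isolations from several horses and also the choice of the cell line with the best viability and fusion, so it is not clear whether the 4 pairs were different horses, and the p-values measure only the spread between these 4 arrays. Dyes were not swapped, so a dye effect on a probe and the effect of GO cannot be told apart.

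Type I interferons bind a receptor made of the chains IFNAR1 and IFNAR2, to which the kinases TYK2 and JAK1 are attached. The kinases phosphorylate STAT proteins, and STAT2 joins IRF9 in ISGF3, the complex that enters the nucleus and switches on interferon-stimulated genes. IRF7 is the transcription factor that amplifies the production of type I interferon, IRF1 is an activator induced above all by interferon gamma, and JAK2 serves the interferon gamma receptor and many cytokine and growth hormone receptors. In many cell types *stat2*, *irf1*, *irf7* and *irf9* are themselves induced by interferon, whereas the receptor chains and kinases are present without it. On the basis of this textbook division the genes were placed in an inducible group (4 genes, 6 probes) and a constitutive group (5 genes, of which 4 had a probe, 11 probes).

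Each probe is an oligonucleotide of 60 bases, and its sequence shows which stretch of the transcript a value stands for. The sequences are those of the array files, written 5′ to 3′, with positions on EquCab1. The EquCab1 annotation of exons and UTRs was not used here. The probes of *irf7*, *irf9*, *irf1* and the brightest probe of *ifnar1* are shown first, as examples of genes that were called lower and genes that were not called. Capitals mark a stop codon that ends a reading frame otherwise open over the whole probe.
irf7: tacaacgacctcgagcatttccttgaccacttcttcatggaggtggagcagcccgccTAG
irf9: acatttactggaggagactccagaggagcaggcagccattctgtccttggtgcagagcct
irf1: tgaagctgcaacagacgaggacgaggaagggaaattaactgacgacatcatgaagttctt
ifnar1: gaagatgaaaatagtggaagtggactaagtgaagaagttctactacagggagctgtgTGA

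The *irf7* probe lay on the minus strand of the unplaced sequence at chrUn:305567879-305567938, and the *irf9* probe on the minus strand at chrUn:180659975-180660034. The *irf1* probe was assigned to the plus strand of chr14:42335582-42337197, a span longer than the probe. The *ifnar1* probe lay on the minus strand of chr26:11882696-11882755. The 3 probes of *stat2*, on the minus strand between chrUn:195519373-195519716, are shown because they are 1 measurement rather than 3. Capitals mark the 58 bases that all of them share.
stat2, brightest: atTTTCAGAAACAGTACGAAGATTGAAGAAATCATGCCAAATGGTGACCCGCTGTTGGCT
stat2, shifted by a base: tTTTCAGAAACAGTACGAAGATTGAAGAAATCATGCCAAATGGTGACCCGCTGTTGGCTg
stat2, shifted by a further base: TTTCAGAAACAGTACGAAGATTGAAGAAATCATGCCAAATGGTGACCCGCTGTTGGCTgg

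In the same way the 5 probes of *ifnar2*, on chr26:11966388-11966451, shared 56 to 59 of their 60 bases pair by pair. The 2 probes each of *ifnar1*, *jak1* and *jak2* did not overlap.

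On all 4 arrays *irf7* and *irf9* were lower in cells incubated with GO, by 5.0-fold and 2.36-fold on average. The receptor chains, both kinases with a probe, *stat2* and *irf1* did not pass the test, with mean changes of no more than 1.19-fold. A probe was called at an adjusted p of at most 0.05, by limma with Benjamini-Hochberg adjustment over 26831 probes, together with a difference of 1.3-fold or more, which is 0.38 on the log2 scale. By this rule 2 of the 17 probes were called (11.8%), both lower, beside 8.94% of all probes tested (5.61% lower, 3.33% higher). With the brightest probe standing for each gene, 2 of 8 genes were called, beside 8.72% of the 9071 genes tested (5.39% lower, 3.33% higher). Set against calls in either direction, the share of probes called was near that of the array as a whole. Both calls were lower, and the 17 probes include the overlapping probes of *stat2* and *ifnar2*, so this share is a rough one. The share by gene was higher than that of the array but rests on 2 genes. In size *irf7* and *irf9* ranked 10th and 37th from the lowest of the 9071 log2 ratios. The middle 90% of these ratios ran from -0.42 to 0.35. All 17 probes were well above background in both channels on all 4 arrays, and none was saturated. In such bulk samples fewer cells that express a gene and less RNA per cell cannot be told apart.

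**Figure D1:**
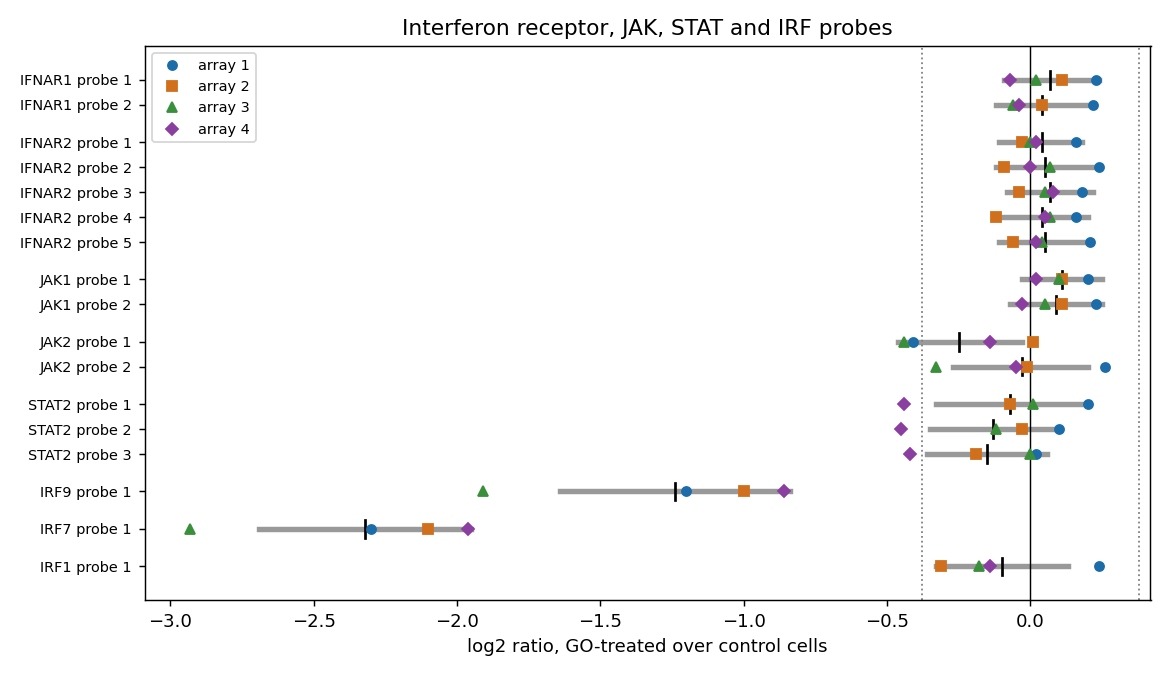
Log2 ratio of GO to control (horizontal axis) for each of the 17 probes (rows, brightest probe of a gene first). Coloured symbols are the 4 arrays, the black tick is their mean, the grey bar is the 95% interval of limma, and dotted lines mark a 1.3-fold change; the *irf7* and *irf9* symbols lie between -2.93 and -0.86, and all the other symbols lie between -0.45 and 0.26.

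*Irf7*, the amplifier of interferon production, had a processed signal in control cells of 3130 on array 1, 1901 on array 2, 7128 on array 3 and 1126 on array 4. In GO-treated cells its signal was 636, 444, 932 and 289 on the same arrays. The groups did not overlap, since the highest GO-treated signal lay under the lowest control signal. The log2 ratios were -2.30, -2.10, -2.93 and -1.96, with a mean of -2.32 ± 0.43 (SD, n = 4), a 95% interval of -2.69 to -1.95 and an adjusted p of 0.00120 by limma. Control signals differed 6.31-fold between the lowest and the highest array, beside 3.22-fold in GO-treated cells, and in the other 7 genes with a probe the control signals spanned 1.16-fold to 2.75-fold.

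*Irf9*, the DNA-binding subunit of ISGF3, had control signals of 547, 453, 622 and 226 on arrays 1 to 4. Its signals in GO-treated cells were 239, 226.1, 166 and 125. Here the groups overlapped, since the control of array 4 lay within the range of the GO-treated cells, but on each array the GO-treated signal was the lower one. The log2 ratios were -1.20, -1.0, -1.91 and -0.86, with a mean of -1.24 ± 0.47 (SD, n = 4), a 95% interval of -1.64 to -0.84 and an adjusted p of 0.00678 by limma. Control signals spanned 2.75-fold and GO-treated signals 1.91-fold.

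**Figure D2:**
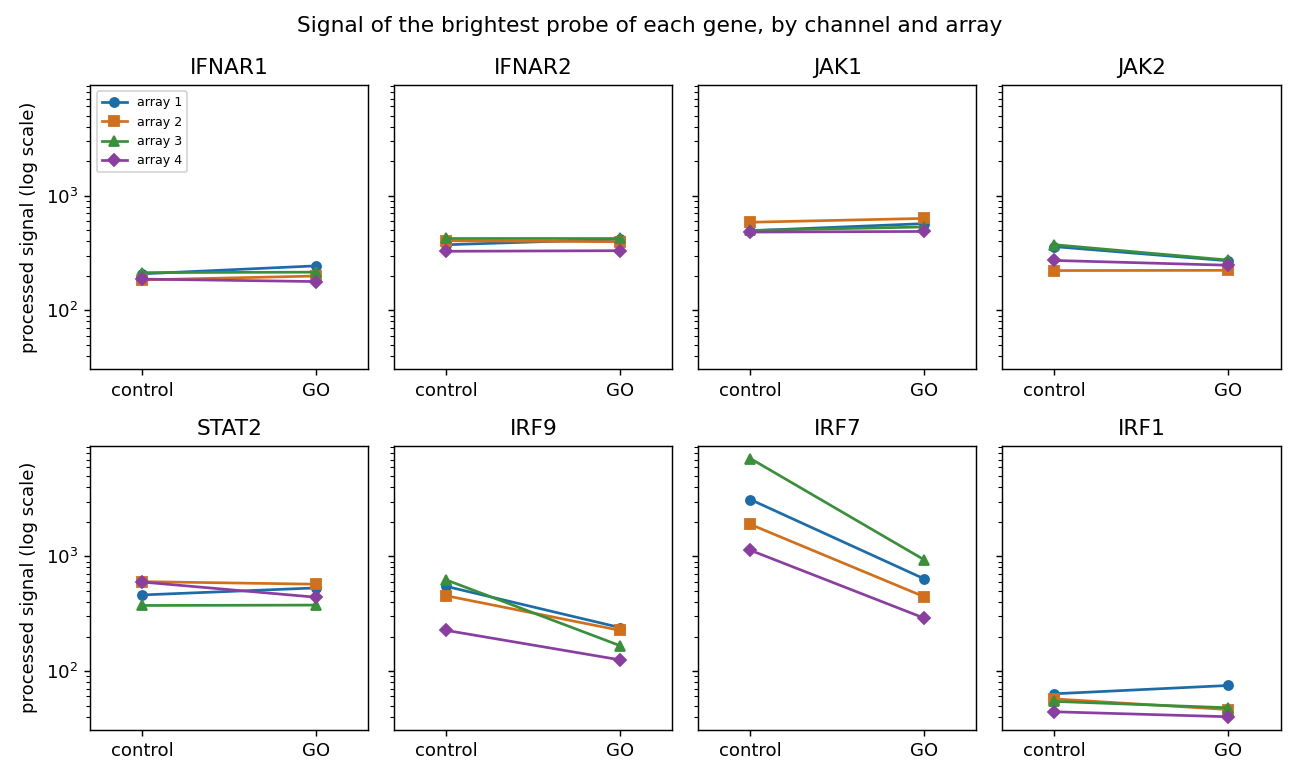
Processed signal (log axis, arbitrary units) of the brightest probe of each of the 8 genes, in control cells (left) and GO-treated cells (right) of each array. Lines join the channels of 1 array; *irf7* and *irf9* slope down on all 4 arrays, and the control signals of *irf7* spread from 1126 to 7128.

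Both falls came in the same order of arrays, largest on array 3, then array 1, array 2 and array 4. The control signals of both genes stood in that order too, but they are the denominators of the ratios, so the orders are not independent. Setting the log2 ratio of *irf7* against that of *irf9* within each array gave differences of -1.10, -1.10, -1.03 and -1.10. *Irf7* thus fell further than *irf9* by nearly the same amount on every array, 1.08 ± 0.04 on the log2 scale (SD, n = 4). An exact sign permutation test of this difference gave p = 0.13 (two-sided), the smallest that 4 arrays allow. Both genes lay under each of the 6 other genes on all 4 arrays, with the smallest gap, 0.42, between *irf9* and *stat2* on array 4.

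The calls of *irf7* and *irf9* held without each array in turn. Both were lost where the channels were tested without pairing by array (adjusted p of 0.0713 and 0.107 by limma) and in a plain one-sample test without shared variances (0.0644 and 0.103), and that of *irf9* was lost where dim probes were tested too (0.0734). Over all alternatives the adjusted p ran from 0.000406 to 0.0713 for *irf7* and from 0.00238 to 0.107 for *irf9*.

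The other inducible factors gave a different picture. *Stat2*, the partner of IRF9 in ISGF3, had control signals of 461, 602, 373 and 597 and GO-treated signals of 531, 572, 376 and 440.1 by its brightest probe. Its log2 ratios were 0.20, -0.07, 0.01 and -0.44, with a mean of -0.07 ± 0.27 (SD, n = 4), at an adjusted p of 0.654 by limma. The groups overlapped, and the arrays went both ways. Means of the overlapping probes were -0.13 and -0.15, and all 3 probes had their lowest value on array 4, between -0.45 and -0.42. The 95% interval of the brightest probe, -0.33 to 0.18, did not reach a change of 1.3-fold in either direction.

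*Irf1*, the activator tied to interferon gamma, had control signals of 63.3, 57.1, 54.3 and 44.1 and GO-treated signals of 74.8, 46.1, 47.8 and 39.9. Medians over tested probes were 389 to 456 in the control channel and 383 to 455 in the GO channel, so *irf1* was dim. Its log2 ratios of 0.24, -0.31, -0.18 and -0.14 gave a mean of -0.10 ± 0.24 (SD, n = 4), a 95% interval of -0.33 to 0.13 and an adjusted p of 0.501 by limma. The groups overlapped, with array 1 higher and the other 3 arrays lower in GO-treated cells. Within the inducible group 2 of 4 genes were therefore called, both lower, beside 5.39% of all genes tested. With so few genes this share is a rough one. Genes that fell and genes that did not pass the test were both in the group.

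None of the 11 probes of the constitutive group was called, beside 8.94% of all probes tested. For so few probes, of which 5 are the overlapping ones of *ifnar2*, a count of 0 is near that share. The mean log2 ratios of the 11 probes lay between -0.25 and 0.11. Their 95% intervals lay between -0.46 and 0.25, and their adjusted p-values between 0.104 and 0.840 by limma. At an unadjusted p of 0.05 by limma 1 of the 11 passed, and in the plain test none was called either.

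For the receptor, the brightest probe of *ifnar1* had control signals of 208, 184, 213 and 187 and GO-treated signals of 244, 199.5, 215 and 178. Its log2 ratios were 0.23, 0.11, 0.02 and -0.07, with a mean of 0.07 ± 0.13 (SD, n = 4), at an adjusted p of 0.496. The nonoverlapping second probe had a mean of 0.04. *Ifnar2* had control signals of 373, 404, 425 and 327 and GO-treated signals of 417, 396, 424.5 and 331. Log2 ratios of its brightest probe were 0.16, -0.03, 0.00 and 0.02, a mean of 0.04 ± 0.08 (SD, n = 4) with an adjusted p of 0.697, and the means of all 5 probes lay between 0.04 and 0.07. Groups overlapped for both chains, and the 95% intervals of all their probes lay between -0.12 and 0.24.

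Among the kinases, *jak1* had control signals of 494, 586.5, 497 and 480.5 and GO-treated signals of 570, 633, 533 and 487. Its log2 ratios were 0.20, 0.11, 0.10 and 0.02, with a mean of 0.11 ± 0.08 (SD, n = 4), at an adjusted p of 0.231. The values were above 0 on all 4 arrays but the groups overlapped, and the second probe, with a mean of 0.09, was below 0 on array 4. *Jak1* lay at chr5:68880402-68881267.

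*Jak2*, at chr23:16912247-16912367, was the constitutive gene with the lowest mean. Control signals of its brightest probe were 359, 222.5, 373 and 272 and GO-treated signals were 269.5, 223.5, 274 and 247. The log2 ratios of -0.41, 0.01, -0.44 and -0.14 gave a mean of -0.25 ± 0.22 (SD, n = 4), at an adjusted p of 0.104, with an unadjusted p of 0.0309 by limma. Arrays 3 and 1 had its lowest values, as for *irf7* and *irf9*. The second probe of *jak2* gave 0.26, -0.01, -0.33 and -0.05, a mean of -0.03 with an adjusted p of 0.840, and the probes disagreed most on array 1, where the brightest lay 0.68 below the other on the log2 scale.

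The symbol *tyk2* was carried by no probe. After the values were seen, 1 probe described as tyrosine kinase 2 was found, at chrUn:145070782-145070841 on EquCab1. Its control signals were 51.5, 66.9, 41.6 and 52.0 and its GO-treated signals 61.7, 69.3, 49.1 and 38.3, low beside the channel medians as for *irf1*. Log2 ratios were 0.26, 0.05, 0.24 and -0.44, with a mean of 0.03 ± 0.33 (SD, n = 4), at an adjusted p of 0.892 by limma. It was not called, and like *stat2* it was lowest on array 4.

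The rest of the pathway was followed with a list of 53 further ligands, receptors, kinases, transcription factors and regulators, of which 36 had a probe and 23 were tested. Of these, 2 were called lower and 0 higher (8.70%, beside 8.72% of all genes), and their median log2 ratio was -0.08 beside 0.00 over all genes. Set against calls in either direction, the share called was that of the array as a whole. Both calls were lower, beside 5.39% of all genes called lower, and a count of 2 does not set the list apart. Both called genes are regulators, and *usp18* is also counted in the list of ISGF3 targets below. *Usp18*, the protease that removes ISG15 from proteins and blocks IFNAR2, fell on arrays 1 to 4 by log2 ratios of -3.38, -2.25, -3.88 and -1.97 (mean -2.87 ± 0.91, SD, n = 4, adjusted p 0.00436 by limma). *Trim21*, an antibody receptor and ubiquitin ligase of the cytosol, had log2 ratios of -0.71, -0.57, -1.30 and -0.30 (mean -0.72 ± 0.42, SD, n = 4, adjusted p 0.0251 by limma). Both had the array order of *irf7* and *irf9*. The count fell to 1 without array 1 or without array 2, and to 0 without pairing, in the plain test, and with dim probes included.

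The interferon ligands could not be followed. Of 8 listed, *ifna1*, *ifnb1*, *ifnk* and *ifng* had a probe, none passed the filter, and none of these probes was well above background on more than 1 array in either channel. *Il10rb*, which lies between *ifnar1* and *ifnar2* on the chromosome and encodes a chain of the interleukin 10 and interferon lambda receptors, had a mean of 0.00 with an adjusted p of 0.981. *Stat5a*, *stat6* and *irf2*, the other STAT and IRF genes tested, had means of 0.11, 0.02 and -0.11 and were not called. *Stat4*, a STAT best known from interleukin 12 signaling, missed the filter and was not tested: its probe was well above background in GO-treated cells on 3 arrays and in control cells on 0, and its measured mean log2 ratio of 1.54 rests on those control signals.

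**Figure D3:**
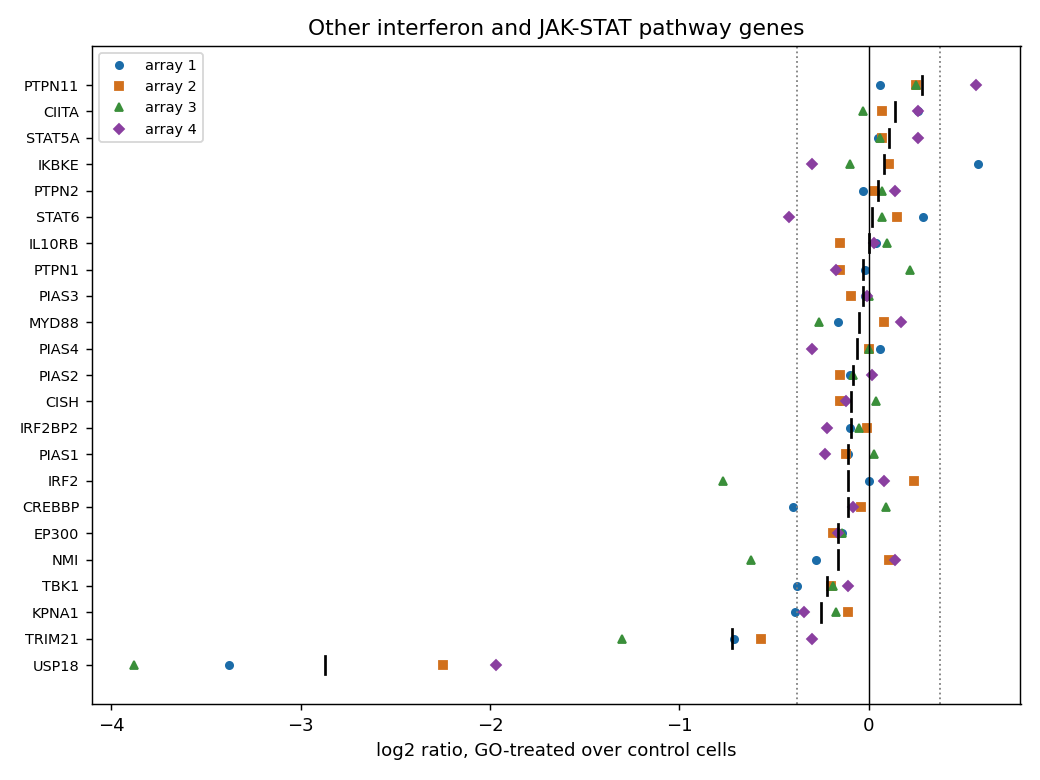
Log2 ratio of GO to control (horizontal axis) for the 23 other pathway genes tested (rows, ordered by mean, brightest probe of each). Coloured symbols are the 4 arrays, black ticks their mean and dotted lines a 1.3-fold change; *usp18* and *trim21* were called, with means of -2.87 and -0.72, and the other 21 means lie between -0.25 and 0.28.

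The genes that ISGF3 is known to switch on were lower in GO-treated cells as a group. Of 35 listed, 30 had a probe and 27 were tested. Well above background in both channels on all 4 arrays were 21 of these, of which 20 were called lower (95.2%, beside 5.39% of all genes tested) and none higher, with a median log2 ratio of -1.43 beside 0.00 over all genes. The other 6 passed the filter through the control channel alone, where they were high, and with them 25 of 27 were called lower (92.6%), at a median of -1.47. The share over all genes is of genes that passed the filter in either channel. Falls of interferon-induced genes in these data were known when the list was chosen. The shares of this list are therefore a description and not independent support. Among the genes measured in both channels on all arrays, the antiviral GTPase *mx1* (-3.07), *ifi44* (-3.05), *ifi44l* (-3.00), *usp18* (-2.87), *herc6* (-2.56), *samd9l* (-2.30), *ifi35* (-2.07) and the ubiquitin-like modifier *isg15* (-2.0) had the largest falls. *Ifih1*, a sensor of viral RNA, and *ifit3* were also called lower, with measured means of -3.25 and -3.01, but in GO-treated cells they were well above background on 1 array each, so these sizes are not exact and were not ranked. Of the 27, *oasl* (-0.08) and *uba7* (-0.86, adjusted p 0.0521 by limma) were not called. In GO-treated cells *uba7* was well above background on 2 arrays. The count of lower genes among the 27 was 13 without array 1, 17 with normexp background correction and loess, 4 without pairing, 2 with dim probes included and 0 in the plain test. Over the whole array 1505 probes were called lower at the main setting. In these alternatives, in the same order, 1436, 816, 304, 624 and 118 were.

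The median of the 27 was -1.97 on array 1, -0.96 on array 2, -2.40 on array 3 and -0.81 on array 4, which is the array order of *irf7* and *irf9*. Of the 27 genes 23 had that whole order (85.2%), as had 316 of the 9071 genes tested (3.48%). The medians and this count include the 6 genes that passed the filter through the control channel alone, where they were high. The ratios of these 6 are not exact, and the order was not counted for the other 21 alone. *Stat2*, *irf1*, both receptor chains and both kinases did not have it. All 27 genes share the 4 arrays with *irf7* and *irf9*, so the shared order is a description of these arrays.

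**Figure D4:**
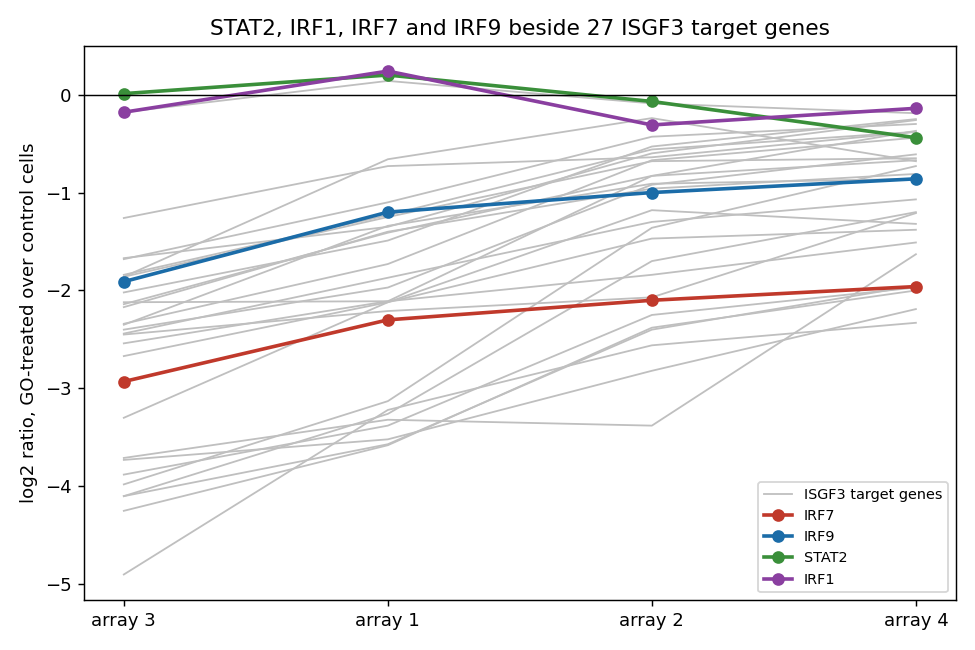
Log2 ratio of GO to control (vertical axis) on each array, with arrays ordered by the size of the *irf7* fall. Grey lines are the 27 ISGF3 target genes tested, among them the 6 that passed the filter through the control channel alone. Coloured lines are *irf7*, *irf9*, *stat2* and *irf1*; *irf7* and *irf9* run parallel, 1.03 to 1.1 apart, and *stat2* and *irf1* stay between -0.44 and 0.24.

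The genes whose 4 log2 ratios lay closest to those of *irf7*, by root mean square difference over the 4 arrays, were *isg15* (0.34), *cxcl10*, a chemokine of T cells (0.40), *gvinp1* (0.41), *xaf1* (0.45) and *ifi35* (0.47). *Isg15* had log2 ratios of -2.11, -1.84, -2.54 and -1.51, and *ifi35* of -2.12, -1.47, -3.30 and -1.38. In GO-treated cells *isg15* and *ifi35* were well above background on all 4 arrays, *xaf1* on 3, and *cxcl10* and *gvinp1* on 1 each, so the ratios and the closeness of the last 3 are not exact. Of these genes *isg15*, *xaf1* and *ifi35* were on the ISGF3 list.

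Markers of the labeled cell type moved as well. Of 10 genes of satellite cells and myoblasts 7 had a probe and all 7 were well above background on every array, while the symbols *pax7*, *cdh15* and *mymk* were carried by no probe. Their summed signal was 142000 to 192000 in control and 81600 to 114000 in GO-treated cells, and 5 of the 7 (*myf5*, *myog*, *myh3*, *des* and *acta1*) were called lower, beside 5.39% of all genes. Their median log2 ratios of -0.34, -0.66, -0.63 and -0.71 on arrays 1 to 4 did not follow the order of *irf7* and *irf9*. Of 15 leukocyte markers 13 had a probe, 3 of these (*cd68*, *cd14* and *ms4a1*) were well above background on every array, and 0 of the 3 were called, beside 8.72% of all genes, with summed signals of 4460 to 5370 in control and 4700 to 5650 in GO-treated cells. Most of the leukocyte sum was *cd14* alone, at 4160 to 4950 in control and 4380 to 5230 in GO-treated cells. None of 5 endothelial markers was well above background on every array, and their summed signals were 27.5 to 36.5 and 29.3 to 39.8. Of 5 fibroblast markers 4 had a probe, 1 of these (*pdgfra*, 0.87) was called higher, beside 3.33% of all genes, and summed signals were 66500 to 86200 and 74300 to 89600. The part of these cell types in the values of *irf7* and *irf9* was not tested.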

How the data were processed

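RNA of GO-treated (Cy5) and control (Cy3) cells was hybridized to 4 two-color horse arrays of 45220 spots. Feature Extraction was 10.10.1.1 per the file headers, and the methods name another version. The authors deposited intensity values per channel, processed by background subtraction and linear and lowess dye normalization, and log10 ratios of GO over control. All 180880 values of the authors' table of log10 ratios for the series equalled those of the array files. Ratios were converted to log2. Control spots (1417 per array) and outlier spots (10 to 19 per array) were left out and spots of 1 probe were averaged. Probes well above background in either channel on all 4 arrays were kept (26831). Well above background were 63.5 to 68.9% of probes in the control channel and 57.4 to 67.0% in the GO channel. The number of arrays limits the precision.

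Log2 ratios were tested against 0 with limma 3.58.1 in R 4.3.3, two-sided, with an intercept, eBayes (prior SD 0.144, prior degrees of freedom 3.60, residual 3) and Benjamini-Hochberg adjustment over all probes tested. Thresholds were those of the methods, which name GeneSpring and no test. At these thresholds the paper reported far fewer transcripts than the probes called here. Its table of identified genes lists neither *irf7* nor *irf9*. GO and control were paired by the array, on which they were hybridized together. Their deviations from the group means correlated at 0.60, 0.86, 0.73 and 0.48 within arrays, and at -0.54 to 0.24 between arrays. Both channels of an array are read from the same spots, so these correlations cannot show whether the cells themselves were paired. The brightest probe, by mean log2 signal, stood for a gene. Named were all listed genes, the called genes of the pathway and ISGF3 lists (at most the 10 largest each) and the 5 genes closest to the one with the largest ratio. Members and lists were chosen with earlier results of these data known, namely falls of interferon-induced genes. The test was tried on simulated data, and figures were drawn with matplotlib 3.10.9. Alternatives were other background correction, dye normalization, centring, filters, tests, array weights, no pairing, no fold threshold, the median over probes, and each array left out. The probe described as tyrosine kinase 2 was added after the data were seen. Promoter sequences and motifs were not analysed here. A marker of the leukocyte list is not reported here.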

Additional observations from a re-analysis of the deposited data

How the results depend on the processing

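With dim probes included, 1 of the 17 probes and 1 of the 8 genes (*irf7*) were called, 0 pathway genes and 2 ISGF3 targets, and *irf9* stood at -1.24 with an adjusted p of 0.0734. In the plain one-sample test 0 of the 17 probes, 0 of the 8 genes, 0 pathway genes and 0 ISGF3 targets were called, with *irf7* at -2.32 (adjusted p 0.0644) and *irf9* at -1.24 (0.103). With no replicate block, the channels taken as unpaired samples, 0 of the 17 probes, 0 of the 8 genes, 0 pathway genes and 4 ISGF3 targets were called, with *irf7* at -2.32 (adjusted p 0.0713) and *irf9* at -1.24 (0.107). Over all probes tested, calls went from 2399 to 908, 147 and 370 in these alternatives, to 1297 with normexp and loess and to 4859 by adjusted p alone. They went to 2430 without array 1, to 1566 without array 2, to 1603 without array 3 and to 2126 without array 4. Fewer degrees of freedom per probe, in the plain test or with an array left out, are part of how those alternatives are built. So are the larger number of probes without the filter and the lack of a fold threshold with adjusted p alone. How far these account for the changes was not tested, and for the others the cause was not tested. Median centring without lowess changed the split of calls from 1505 lower and 894 higher to 1650 lower and 1740 higher. Leaving out each array gave 2 to 2 of the 17 probes and of the 8 genes, 1 to 2 pathway genes (1 without array 1 or array 2), 13 to 25 ISGF3 targets (13 without array 1), -2.44 to -2.12 for *irf7* (adjusted p 0.001 to 0.0118) and -1.37 to -1.02 for *irf9* (0.00828 to 0.0291). Over every alternative run, *irf7* lay between -2.44 and -2.12 and *irf9* between -1.37 and -0.90, and none called another of the 8 genes. *Stat2* was at 0.05 without array 4, uncalled. The median over probes and the probe described as tyrosine kinase 2 left the count of genes at 2. The 4 arrays of 1 dye orientation limit what could be detected.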
